A study of Mus musculus with 12 samples.

Results

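RLTR10 is a family of long terminal repeats (LTRs) of mouse endogenous retroviruses of the ERVK class, and its transcripts were followed here through an immunoprecipitation of the LINE-1 protein ORF1p from testes that lack Mael. Its members were every repeat whose annotated name starts with RLTR10, which gave 10 of the 1528 repeat names measured per library and 2670 of the 781637 repeat loci listed with group means. The 10 names are RLTR10, RLTR10A, RLTR10B, RLTR10B2, RLTR10C, RLTR10D, RLTR10D2, RLTR10E and RLTR10F, which are LTR subtypes, and RLTR10-int, which is an internal, protein-coding part. A repeat name pools all copies of a subtype and a locus is a single annotated copy.

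RNA was sequenced from Mael-/- testes of C57BL/6 mice of about 3 months, and every group carries this deletion, so no wild-type testis enters any comparison. TOTAL is RNA of the whole extract, INPUT is RNA of pooled fractions 5 to 8 of a sucrose gradient run with EDTA, IP is RNA bound by an ORF1p antibody on beads from INPUT, and BO is RNA left on beads without antibody after the same incubation. Each group has 3 libraries, which the design text describes as biological replicates. The comparisons with BO ask which RNAs weigh more in what the antibody recovers than in what the beads retain. Those with INPUT and TOTAL ask how far the recovered RNA departs in composition from what was present.

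An LTR flanks both ends of a provirus and holds its promoter and polyadenylation signal, and many copies survive as solitary LTRs after recombination has removed the internal part. MMERVK10C-int is an ERVK internal part whose flanking LTRs are of the RLTR10C subtype, and RLTR10B copies are known as promoter-like and enhancer-like elements in meiotic male germ cells. ORF1p is the RNA-binding protein that LINE-1 encodes and binds preferentially to its own transcript, while MAEL acts in the piRNA pathway that silences transposons in male germ cells.

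Reads assigned to repeats ranged from 1384904 to 7282171 per library, of which 2029 to 9169 fell on RLTR10 names. The 6 spermatocyte markers had TOTAL means between 42.5 and 9433 and those of Sertoli and Leydig cells reached 66084 and 29894, whereas the 4 markers of round and elongating spermatids lay between 11.7 and 30.1. Mael itself had a mean of 0.650 in TOTAL and 0.502 in BO and was at 0 in INPUT and IP. All 6 spermatocyte markers and both pan-germ-cell markers were higher in IP than in INPUT, BO and TOTAL, with summed levels of 120179 against 18409 in INPUT for the spermatocyte list, and 0 of 4 Leydig and 0 of 4 Sertoli markers were higher in IP than in INPUT, and 3 and 1 of them were higher than in BO. Spermatogonia markers were higher in IP for 1 of 4 against INPUT, 2 of 4 against BO and 0 of 4 against TOTAL, with sums of 3409 in IP and 5372 in INPUT. Peritubular markers were higher in IP for 1 of 2 against INPUT, 2 of 2 against BO and 1 of 2 against TOTAL. Macrophage markers were higher in IP for 0 of 2 against INPUT, 2 of 2 against BO and 0 of 2 against TOTAL. For the marker levels in TOTAL, fewer cells of a type and less RNA per cell cannot be told apart in such bulk RNA. The part of these cell-type RNAs in the RLTR10 results was not tested. LSU-rRNA made up 52.1% of the repeat reads of BO replicate 3, and 7SL RNA made up 38.1% to 51.6% in TOTAL but 1.16% to 1.63% in IP.

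RLTR10 reads took a larger share of the ORF1p immunoprecipitate than of any other group. They made up between 0.458% and 0.644% of repeat reads in the 3 IP libraries, against 0.153% to 0.157% in INPUT, 0.0724% to 0.158% in BO and 0.0650% to 0.0986% in TOTAL. On the deposited scale, which sets the upper quartile of every library to the same value, the summed RLTR10 normalized count was 10917 ± 2091 in IP, 4494 ± 3.67 in INPUT, 3225 ± 251 in BO and 4383 ± 88.3 in TOTAL (SD, n = 3). The IP sum was thus 2.43 times that of INPUT, 3.39 times that of BO and 2.49 times that of TOTAL. This rise was carried unequally by the subtypes.

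RLTR10B2 and RLTR10B were the subtypes with the highest values in IP. RLTR10B2 had normalized counts of 4268, 3349 and 2571 in the 3 IP libraries, 989, 891 and 848 in INPUT, 826, 654 and 621 in BO, and 934, 727 and 848 in TOTAL. Every IP library lay above all 9 others, all INPUT libraries lay above all BO libraries, and TOTAL overlapped with both. RLTR10B had 4421, 3407 and 2647 in IP, 1237, 1246 and 1097 in INPUT, 745, 553 and 710 in BO, and 1239, 1168 and 947 in TOTAL. The IP libraries again stood clear of the rest, and BO was lower than both INPUT and TOTAL without overlap. For both subtypes the highest IP value came from replicate 1 and the lowest from replicate 3.

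RLTR10C and RLTR10-int followed at a smaller distance. RLTR10C had 1933, 1668 and 1445 in IP, 919, 848 and 1024 in INPUT, 712, 693 and 648 in BO, and 730, 801 and 761 in TOTAL. RLTR10-int had 1661, 1394 and 1315 in IP, 767, 888 and 914 in INPUT, 663, 561 and 678 in BO, and 896, 949 and 943 in TOTAL. In both names all IP libraries exceeded all others, with INPUT and TOTAL overlapping for RLTR10-int and every INPUT value of RLTR10C above every TOTAL value.

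The undivided name RLTR10 reached 279, 344 and 399 in IP, against 197, 229 and 177 in INPUT, 162, 155 and 212 in BO, and 209, 260 and 239 in TOTAL. RLTR10A had 209, 160 and 209 in IP, 122, 127 and 147 in INPUT, 96.6, 111 and 122 in BO, and 125, 166 and 172 in TOTAL. For plain RLTR10 the IP libraries were the highest throughout, and for RLTR10A they overlapped with TOTAL only. RLTR10D had 126, 138 and 112 in IP, 69.5, 67.8 and 72.6 in INPUT, 86.0, 69.0 and 65.8 in BO, and 89.1, 82.3 and 88.3 in TOTAL, which again left IP above the other 3 groups.

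RLTR10D2, RLTR10E and RLTR10F were measured on as few as 23, 29 and 53 reads in a library. RLTR10D2 had 53.0, 47.4 and 91.7 in IP, 32.9, 38.4 and 40.1 in INPUT, 43.6, 36.4 and 36.9 in BO, and 35.3, 65.9 and 72.3 in TOTAL. RLTR10F had 85.3, 102 and 93.6 in IP, 54.5, 84.9 and 64.2 in INPUT, 70.4, 69.0 and 114 in BO, and 48.9, 61.5 and 87.2 in TOTAL. The IP libraries of RLTR10D2 overlapped with TOTAL, and those of RLTR10F overlapped with BO and TOTAL. RLTR10E went the other way on this scale, with 72.1, 88.3 and 60.5 in IP below all of 138, 143 and 124 in TOTAL, overlapping with 107, 75.9 and 106 in INPUT, and above 54.2, 59.8 and 46.5 in BO.

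**Figure D1:**
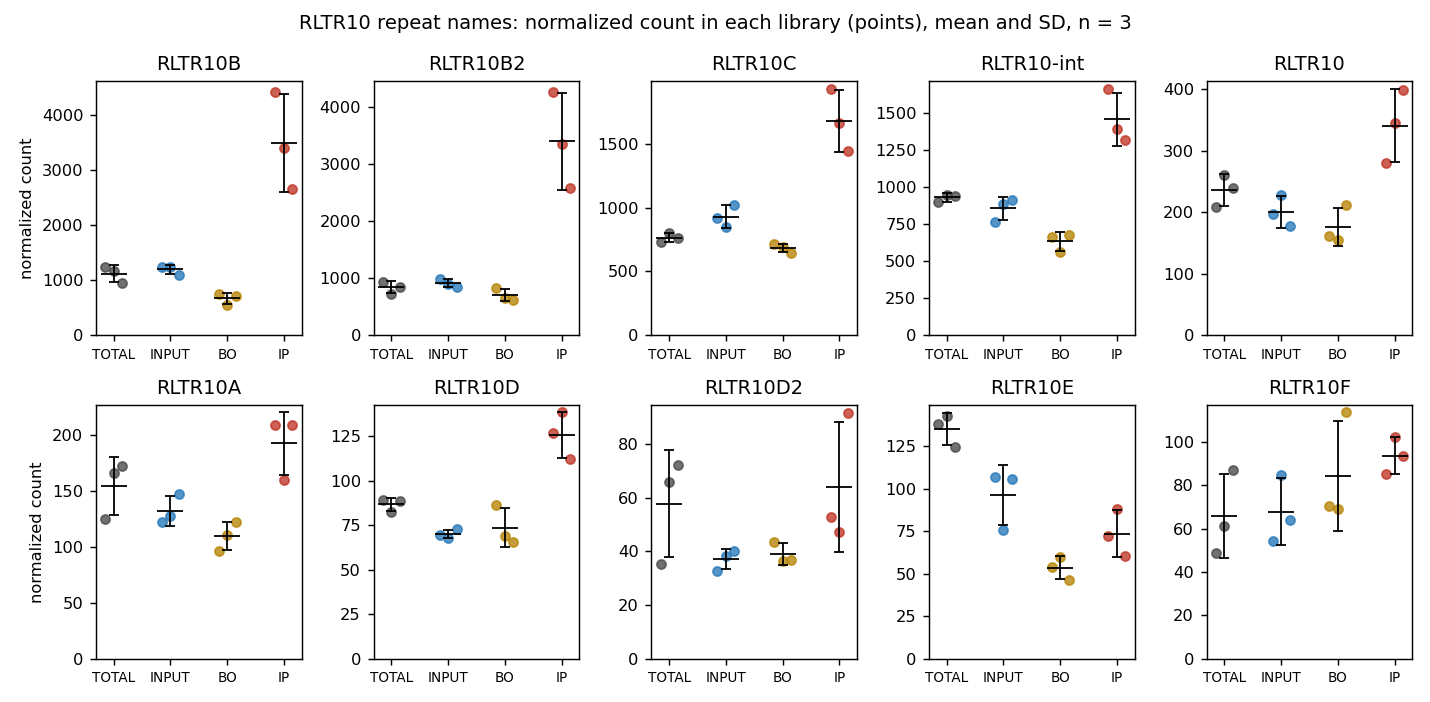
Normalized count of each RLTR10 repeat name (vertical axis, linear and starting at 0, with its own scale in each panel) in the 3 libraries of TOTAL, INPUT, BO and IP. Points are libraries and bars give the mean and SD (n = 3); the IP points of RLTR10B and RLTR10B2 lie between 2571 and 4421, above every other library, and those of RLTR10E lie below TOTAL.

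The antibody was compared with the beads first. With limma on log2(normalized count + 1) over 1180 repeat names, a name was called when its log2 fold change passed 1 or -1 at a Benjamini-Hochberg adjusted p under 0.05. RLTR10B rose in IP over BO by 2.36 ± 0.17 (log2, SE; adjusted p = 1.7e-06), RLTR10B2 by 2.26 ± 0.17 (adjusted p = 1.73e-06), RLTR10C by 1.29 ± 0.11 (adjusted p = 3.68e-06) and RLTR10-int by 1.20 ± 0.11 (adjusted p = 6.08e-06). These 4 of 10 names were called higher and 0 were called lower, where 5.08% of all names tested were called higher and 3.81% lower. With libraries scaled to their totals, 8 of 10 were called higher, where 10.6% of all names were. Plain RLTR10, at 0.95 ± 0.16, RLTR10A, at 0.80 ± 0.16, and RLTR10D, at 0.77 ± 0.14, had adjusted p of 0.000842, 0.00219 and 0.00124 but did not reach a doubling. Without BO replicate 3, plain RLTR10 was called too, at 1.09, which made 5 of 10, where 68 of all 1180 names were called higher. RLTR10D2, RLTR10E and RLTR10F were at 0.64, 0.44 and 0.19 with adjusted p of 0.113, 0.0822 and 0.61.

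All IP libraries exceeded all BO libraries for 9 of the 10 names, the exception being RLTR10F, and this held for 16.5% of all names. The median log2 fold change over the 10 names was 0.87, beside -0.12 over all names tested. Of the 257 ERVK names outside RLTR10, 18 were called higher and 16 lower.

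Against INPUT, the RNA from which the antibody had drawn, RLTR10B2 had the larger estimate. RLTR10B2 rose by 1.87 ± 0.17 (log2, SE; limma adjusted p = 1.88e-05) and RLTR10B by 1.52 ± 0.17 (adjusted p = 7.37e-05), and these 2 of 10 names were called higher and 0 lower, where 3.22% of all names were called higher and 2.88% lower. With libraries scaled to their totals, 9 of 10 were called higher, where 10.8% of all names were. RLTR10C at 0.85 ± 0.11, RLTR10D at 0.83 ± 0.14, RLTR10-int at 0.76 ± 0.11 and plain RLTR10 at 0.75 ± 0.16 had adjusted p of 0.000148, 0.00116, 0.000312 and 0.00501 without reaching a doubling. RLTR10D2, RLTR10A and RLTR10F were at 0.71, 0.53 and 0.48. RLTR10E was at -0.38 ± 0.18 (adjusted p = 0.148), and at 0.16 with libraries scaled to their totals. For 9 of the 10 names all IP libraries were above all INPUT libraries, as were 17.4% of all names, and the median was 0.76 beside -0.06 over all names.

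Against TOTAL, RLTR10B2 rose by 2.00 ± 0.17 (log2, SE; limma adjusted p = 8.19e-06), RLTR10B by 1.62 ± 0.17 (adjusted p = 4.94e-05) and RLTR10C by 1.13 ± 0.11 (adjusted p = 1.66e-05). These 3 of 10 names were called higher and 0 lower, where 2.88% of all names were called higher and 3.47% lower. With libraries scaled to their totals, 9 of 10 were called higher, where 86.8% of all names were. RLTR10E had a log2 fold change of -0.88 ± 0.18 (adjusted p = 0.00533), and its IP libraries were all below its TOTAL libraries, as were those of 22% of all names. Its direction depended on scaling, turning to 0.65 under library totals (adjusted p = 0.0786). All IP libraries were above all TOTAL libraries for 6 of the 10 names, against 15.4% of all names, and the median was 0.53 beside -0.05. The 3 comparisons share the IP libraries, so their values for a name are not independent of each other.

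**Figure D2:**
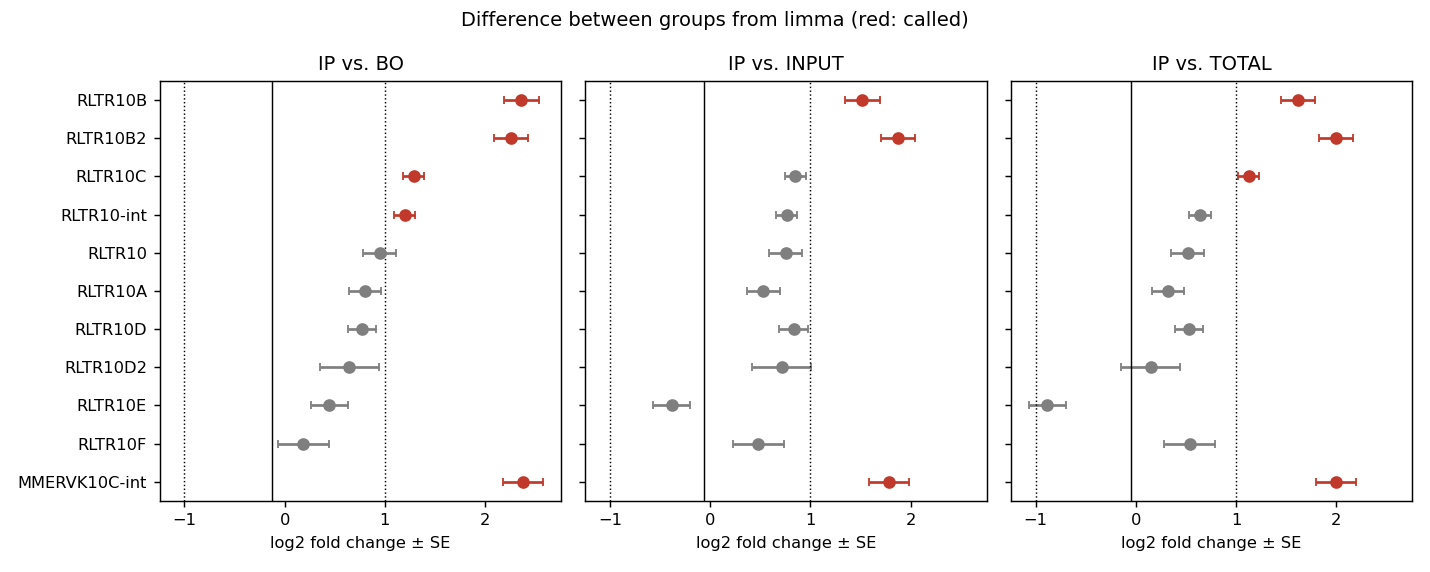
Log2 fold change with its SE from limma (horizontal axis) for the 10 RLTR10 names and the internal part MMERVK10C-int in IP against BO, INPUT and TOTAL. Red points were called, the solid line is the median over all names tested and dotted lines mark a log2 fold change of 1 and -1; RLTR10B and RLTR10B2 are called in each panel and RLTR10E is below 0 against INPUT and TOTAL, though not with libraries scaled to their totals.

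How the names differed before any antibody was seen in the other 2 comparisons. Between INPUT and TOTAL limma called 0 of the 10 names in either direction, with 2 at an unadjusted p under 0.05, and edgeR and DESeq2 on the recovered reads also called 0. Over all names 0% were called higher and 0.339% lower. With libraries scaled to their totals instead, 4 names were called higher in INPUT, where 53.9% of all names were, and 6 others changed sign. RLTR10C was at 0.28 ± 0.11 (log2, SE; adjusted p = 0.201), or adjusted p = 0.0475 in a limma fit of these 2 groups with the replicate number as a block, with its libraries clear of TOTAL, as for 14.7% of all names. RLTR10D and RLTR10E, at -0.30 and -0.50 (adjusted p = 0.301 and 0.181), had all INPUT libraries below TOTAL, as for 10.5% of all names. Within the 3 same-numbered pairs of libraries, RLTR10, RLTR10-int, RLTR10A, RLTR10D, RLTR10D2 and RLTR10E were lower in INPUT every time, as were 23.5% of all names, and RLTR10B2 and RLTR10C were higher every time, as were 28.9%.

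The beads without antibody were set against INPUT to show how the composition of the RNA they retained differed. With each library scaled to the same upper quartile, the amount of RNA retained is not measured. Between BO and INPUT limma called 0 names, with 5 at an unadjusted p under 0.05, and edgeR and DESeq2 called 0, where 2.63% of all names were called higher and 2.8% lower. RLTR10B was at -0.84 ± 0.17 (adjusted p = 0.00341), RLTR10E at -0.83 ± 0.18 (adjusted p = 0.0054), RLTR10C at -0.44 ± 0.11 (adjusted p = 0.00829) and RLTR10-int at -0.43 ± 0.11 (adjusted p = 0.0092). All BO libraries were below all INPUT libraries for 6 of the 10 names, against 18.5% of all names, and 0 were all higher, against 23.7%, and the median was -0.33 beside 0.03. RLTR10B2 was at -0.38 ± 0.17 (adjusted p = 0.117).

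The composition of the RLTR10 reads shifted towards 2 subtypes in the IP. RLTR10B and RLTR10B2 together held 62.6 ± 4.0% of RLTR10 reads in IP (SD, n = 3), with libraries between 58.3% and 66.3%, against 46.8 ± 3.17% in INPUT, 42.4 ± 2.65% in BO and 44.5 ± 3.80% in TOTAL. The share of RLTR10B2 went from 20.2 ± 1.60% in INPUT to 30.9 ± 1.94% in IP and that of RLTR10B from 26.6 ± 1.84% to 31.7 ± 2.07%. RLTR10C went from 20.7 ± 1.99% of reads to 15.5 ± 0.709% and RLTR10-int from 19.1 ± 1.76% to 13.5 ± 1.08%. RLTR10E went from 2.14 ± 0.394% to 0.684 ± 0.138%. These are shares of reads and not of transcripts, since no lengths of the copies enter them.

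**Figure D3:**
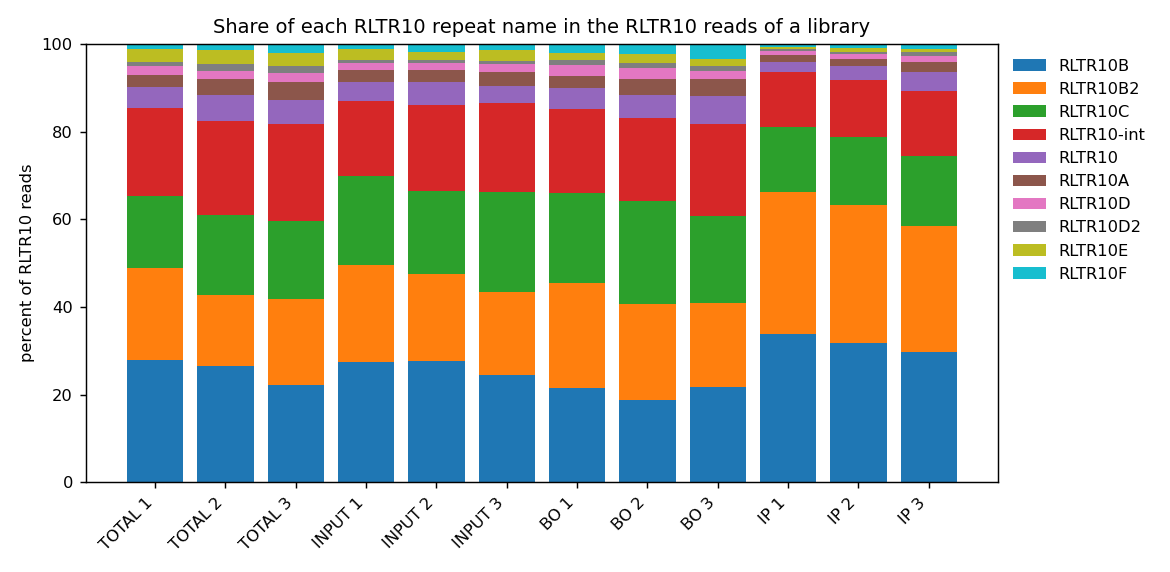
Share of each RLTR10 repeat name in the RLTR10 reads (percent, vertical axis from 0 to 100) in each of the 12 libraries. The 2 lowest segments, RLTR10B and RLTR10B2, fill between 58.3% and 66.3% of the bar in the IP libraries and less than 50% in every other library.

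A ratio between 2 names within a library does not depend on how the library was scaled. The log2 ratio of RLTR10B2 to RLTR10-int was 1.36, 1.26 and 0.97 in IP, 0.37, 0.0053 and -0.11 in INPUT, 0.32, 0.22 and -0.13 in BO, and 0.060, -0.39 and -0.15 in TOTAL. The ratio of RLTR10B to RLTR10-int was 1.41, 1.29 and 1.01 in IP, 0.69, 0.49 and 0.26 in INPUT, 0.17, -0.020 and 0.067 in BO, and 0.47, 0.30 and 0.0065 in TOTAL. In both cases each IP value was above all others. The differences between IP and INPUT were 1.11 for RLTR10B2 and 0.76 for RLTR10B on the log2 scale. An exact two-sided permutation test with 3 libraries a group cannot give a p below 0.1, which both reached, and adjusted over the 20 ratios of the comparison this is 0.167.

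For RLTR10C the ratio to RLTR10-int differed by 0.085 between IP and INPUT (exact permutation p = 0.7) and by 0.090 between IP and BO (exact permutation p = 0.6). Groups of this size cannot show that the ratio was unchanged. Against TOTAL this ratio was higher in IP by 0.49 and already higher in INPUT by 0.40, both without overlap. The ratio of RLTR10E to RLTR10-int was -4.51, -3.97 and -4.42 in IP and -2.83, -3.53 and -3.10 in INPUT. It was lower in IP than in INPUT by 1.14, than in BO by 0.75 and than in TOTAL by 1.52, each time without overlap (exact permutation p = 0.1 for each). Of the 9 ratios to RLTR10-int, 2 were all higher and 1 all lower in IP against INPUT, where 1.87% and 76.8% of all names were. Against BO, 2 were all higher and 2 all lower, where 1.78% and 85.9% of all names were, and against TOTAL 3 were all higher and 1 all lower, where 2.71% and 71.2% were.

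MMERVK10C-int, with 119611, 83727 and 65446 in IP against 28159, 23331 and 24366 in INPUT, rose in IP over BO by 2.38 ± 0.20, over INPUT by 1.79 ± 0.20 and over TOTAL by 2.00 ± 0.20 (log2, SE; limma adjusted p = 5.02e-06, 7.24e-05 and 2.95e-05). Measured against it, 8 of the 10 RLTR10 names were all lower in IP in each comparison, as were 96.2%, 93.8% and 95.6% of all names against BO, INPUT and TOTAL. The exceptions were RLTR10B2 and RLTR10B against BO, and RLTR10B2 and RLTR10D2 against INPUT and against TOTAL. For RLTR10B2 the log2 ratio to MMERVK10C-int was -4.81, -4.64 and -4.67 in IP, -4.83, -4.71 and -4.84 in INPUT, -4.66, -4.54 and -4.56 in BO and -4.79, -4.79 and -4.54 in TOTAL. The IP values overlapped with all 3 other groups, with differences of 0.087 from INPUT, -0.12 from BO and 0.0004 from TOTAL (exact permutation p = 0.2, 0.2 and 1). RLTR10C, the subtype known to flank this internal part, was lower in IP by 0.94 against INPUT, 1.09 against BO and 0.87 against TOTAL on the same ratio, without overlap.

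RLTR10B and RLTR10B2 were also set against each other, a ratio chosen after the values were seen. The log2 ratio of RLTR10B to RLTR10B2 was 0.051, 0.025 and 0.042 in IP, 0.32, 0.48 and 0.37 in INPUT, 0.41, 0.68 and 0.16 in TOTAL, and -0.15, -0.24 and 0.19 in BO. It was lower in IP than in INPUT by 0.35 and than in TOTAL by 0.38 without overlap, and IP lay within the range of BO (exact permutation p = 0.1, 0.1 and 0.4). In BO it was lower than in INPUT by 0.46 without overlap (exact permutation p = 0.1, adjusted p = 0.25). Of all names, 95.3% were all lower in IP against INPUT when measured against RLTR10B2, 95.8% against TOTAL and 96% against BO.

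**Figure D4:**
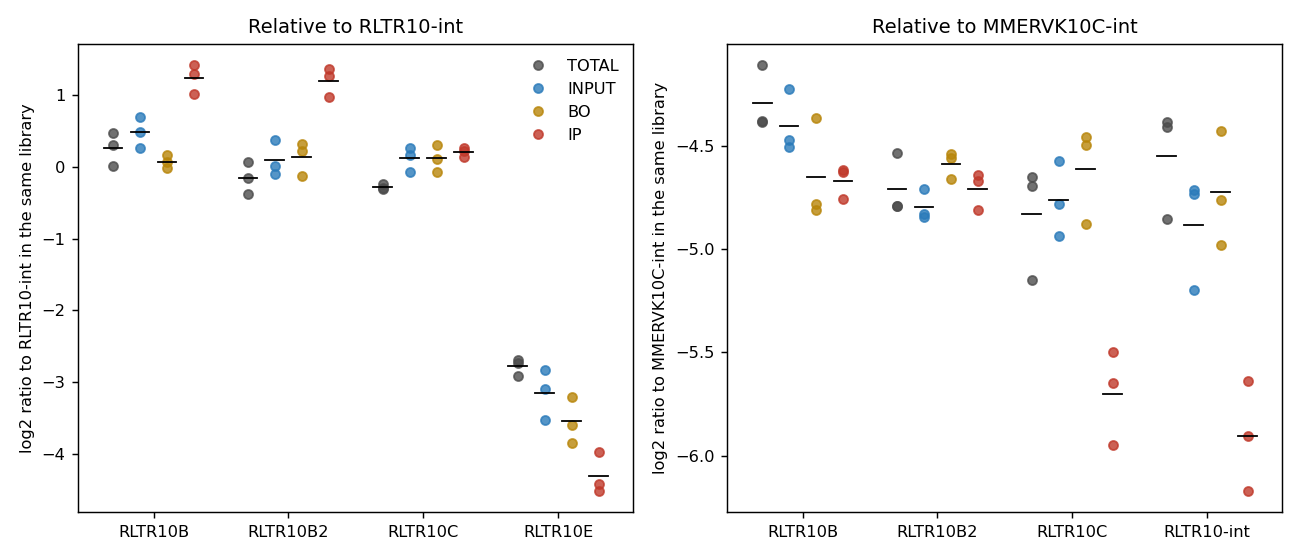
Log2 ratio within a library (vertical axis) of named RLTR10 subtypes to RLTR10-int (left) and to MMERVK10C-int (right), with a point for each library, coloured by group, and a line at the mean of 3 libraries. In the left panel the IP points of RLTR10B and RLTR10B2 are above all others and those of RLTR10E below; in the right panel those of RLTR10C and RLTR10-int are below all others and those of RLTR10B2 overlap with them.

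Single RLTR10 copies were described from the authors' mean per group and locus, without a value per library, so no test was run on them here and folds are ratios of 2 means with 0.5 added. Of the 2670 listed loci, 2301 had a value above 0 in at least 1 group, 369 were at 0 in all and 291 were above 0 in all 4. A value above 0 was found in IP for 69.2% of the 224 RLTR10B loci and 62.7% of the 357 RLTR10B2 loci, and in INPUT for 51.3% and 47.6%, where 46.9% and 50.4% of all listed repeat loci had one in IP and INPUT. For the 657 RLTR10C loci these shares were 49.8% and 44.0%, for the 805 RLTR10-int loci 50.8% and 33.0%, and for the 226 loci of plain RLTR10 35.4% and 30.5%. The remaining names had 145 (RLTR10A), 91 (RLTR10D), 60 (RLTR10D2), 55 (RLTR10F) and 50 (RLTR10E) loci. The listed loci need not be all annotated copies, since the locus numbers of RLTR10B run to 477 and those of plain RLTR10 to 2907. Of the listed loci, 26 held 50% of the RLTR10 sum in IP.

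The highest IP means belonged to RLTR10B2 and RLTR10B copies. Locus RLTR10B2_833 had an IP mean of 338 against 36.8 in INPUT, RLTR10B2_748 had 285 against 72.2 and RLTR10B2_52 had 128 against 8.76. These 3 copies held 50.4% of the IP sum of RLTR10B2, and 26.7% of its INPUT sum. The ratio of the IP sum to the INPUT sum of RLTR10B2 loci was 3.38 with them and 2.28 without them, a drop that follows in part from picking them for their IP means. Against BO, in a table normalized on its own, the folds of the 3 copies were 6.82, 2.92 and 7.22, and against TOTAL they were 11.2, 3.97 and 8.84.

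Copies of RLTR10B diverged from each other. RLTR10B_27 had an IP mean of 224 against 31.3 in INPUT, a fold of 7.06, while RLTR10B_372, the copy with the highest INPUT mean of the subtype, had 79.5 against 73.8, a fold of 1.08. RLTR10B_468 had 60.6 against 16.3. Among copies named after their values were seen, RLTR10B_202 and RLTR10B_182 had IP means of 36.7 and 32.2 against INPUT means of 43.0 and 35.3. Against BO the folds of RLTR10B_372, RLTR10B_202 and RLTR10B_182 were 2.48, 3.27 and 1.61. The ratio of sums over INPUT for RLTR10B was 2.39, and 2.14 without its 3 leading copies, picked in the same way.

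The RLTR10C copies named here were picked for their IP means, so their folds describe them and test nothing. RLTR10C_432 had 52.2 against 17.4, RLTR10C_567 had 48.7 against 4.11 and RLTR10C_776 had 36.7 against 6.39, and the means of the last 2 in INPUT were under 10. The ratio of IP to INPUT sums for RLTR10C was 2.00, and 1.63 without them. Among internal copies, RLTR10-int_1802 had 32.2 against 21.2, RLTR10-int_2110 had 21.4 against 22.1 and RLTR10-int_1801 had 17.1 against 9.14, none of them past 2-fold against INPUT. Against BO their folds were 1.98, 2.40 and 18.3, the last with a BO mean of 0.239. RLTR10A_714 had 11.8 in IP against 24.8 in INPUT, and RLTR10D_361 had 14.1 against 4.50, but its fold against BO was 0.876.

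Loci were counted where the mean of the 2 group means was at least 10, which 33 RLTR10 loci passed in the table with BO, 40 in that with INPUT and 37 in that with TOTAL. Of these, 21, 21 and 22 were past 2-fold higher in IP, where 17.5%, 22.6% and 24.8% of all repeat loci were. A locus can pass this filter through IP alone: 6, 10 and 9 of the higher loci had a mean of at least 10 in the other group. Past 2-fold lower were 2, 3 and 0 RLTR10 loci, where 48.4%, 31.8% and 25.1% of all loci were. Of 31 loci that passed in all 3 tables, 16 were past 2-fold higher in each, of which 7 were RLTR10B2, 5 RLTR10B and 4 RLTR10C copies. Of all repeat loci that passed in the 3 tables, 17.3% were past 2-fold higher in each. Of the 16, 7 had means under 10 in INPUT, BO and TOTAL alike, so that they passed only through IP. Among the 31 loci, 12 had means of at least 10 in INPUT, BO and TOTAL alike. Past 2-fold in each table were 4 of these 12 (RLTR10B2_833, RLTR10B2_748, RLTR10B2_709 and RLTR10B_27), where 6.77% of all repeat loci chosen in the same way were. This choice still rested in part on the IP mean. RLTR10D_287, with 17.3 in INPUT, 10.7 in BO and 13.0 in TOTAL, was left out through its low IP mean.

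Loci were also chosen on their INPUT mean alone, a choice added after the values were seen. Of 28 RLTR10 loci with an INPUT mean of at least 10, 10 were past 2-fold higher in IP, where 6.22% of all such repeat loci were, and their median fold was 1.06 beside 0.456 over all. By subtype these were 4 of 9 RLTR10B loci, 5 of 10 RLTR10B2 loci and 1 of 2 RLTR10C loci. Of the 28, 14 had folds between 0.5 and 2, as had 3219 of 8147 repeat loci. The lowest fold of the 28 was 0.325, at an RLTR10B2 locus.

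RLTR10A_714 was past 2-fold lower in IP against both BO, with a fold of 0.498, and INPUT, with 0.484. RLTR10C_480 had an IP mean of 4.90 against 15.8 in INPUT, and RLTR10D_287 had 6.11 against 17.3, and their folds against BO, where they missed the minimum, were 0.350 and 0.462. RLTR10B_319 had a BO mean of 30.4 against 2.65 in IP, while its INPUT mean was 1.45. RLTR10, RLTR10D2, RLTR10E and RLTR10F had 0 loci above the minimum in any of the 3 tables.

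Sums over loci and the values per name did not weigh the subtypes alike. RLTR10B2 held 40.4% and RLTR10B 26.4% of the RLTR10 sum over loci in IP, but 31.1% and 32.0% of the sum over names. RLTR10E had a ratio of IP to INPUT of 1.17 from its loci and 0.765 from its name, and RLTR10A had 0.952 and 1.46. Telescope reassigned reads with several places of alignment before copies were collapsed by name, the sources used here do not say whether the tables of single loci rest on the same counts, and the part of this in the gaps was not tested.

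**Figure D5:**
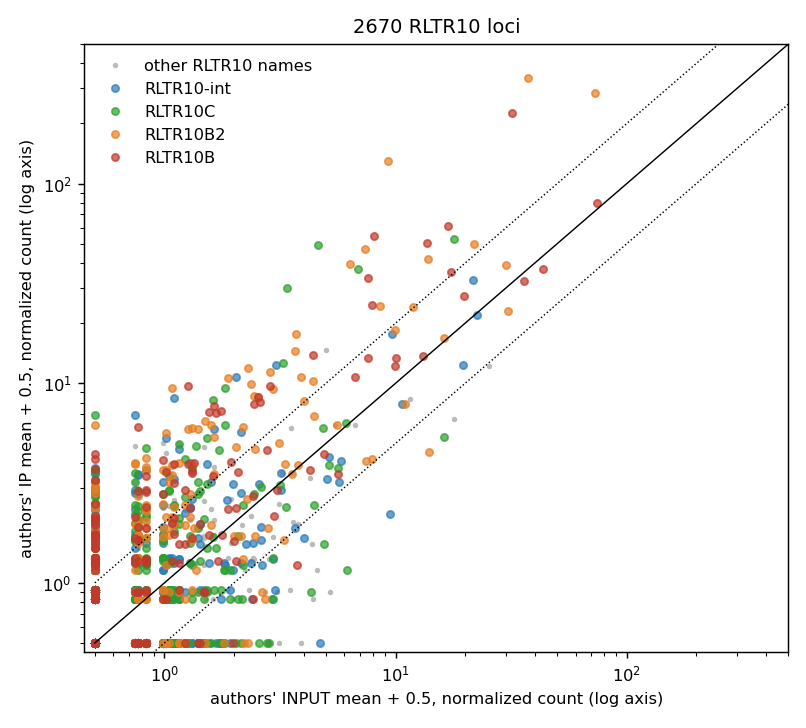
Authors' IP mean against authors' INPUT mean of the 2670 RLTR10 loci (normalized count with 0.5 added, both axes logarithmic), coloured by repeat name. The solid line marks equal values and the dotted lines a 2-fold difference; the leading RLTR10B2 and RLTR10B loci, at IP means of 338, 285, 224 and 128, lie above the upper line, and RLTR10B_372, at 79.5, lies near the solid line.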

How the data were processed

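Normalized counts per repeat name (unit: signal) were deposited for 12 libraries (3 each of TOTAL, INPUT, BO and IP). Per the study's methods, the authors aligned 75-bp single-end reads of stranded, ribosomal RNA-depleted libraries to mm10 with STAR 2.6.0c, allowing many placements per read, assigned them to repeats with Telescope, collapsed copies by name and scaled libraries with EBSeq; libraries of TOTAL and INPUT were made from more RNA than those of IP, and BO from the volume used for IP. Library scaling on the upper quartile sets differences relative to that quartile. Dividing each library's values by its smallest step gave whole reads for 100% of values within 0.1 read. A second set of deposited signal values holds the authors' normalized mean per group for single loci, in 3 tables (DESeq2 1.24.0, per the submitters' processing notes), each used on its own; their columns of the authors' fold changes and p-values were not used, and 298 duplicate rows were dropped. Locus coordinates and sequences were not analysed here.

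The 1180 names whose average across all 12 libraries reached 10 were tested with limma 3.58.1 (R 4.3.3; trend, 4 groups in 1 fit, no block, two-sided) on log2(value + 1) and called at a log2 fold change above 1 or below -1 with a Benjamini-Hochberg adjusted p under 0.05. Fold changes on this scale are slightly understated for low names. Ratios within libraries were tested with exact permutation tests. edgeR 4.0.16 and DESeq2 1.42.0 on recovered reads were alternatives. On simulated data for IP against INPUT, 99.5% of 200 names changed by a log2 fold of 2 were called, and 0 unchanged names. The simulation gave every name the same fixed spread, which was not taken from these libraries. Its fold of 2 was above that of every RLTR10 name against INPUT, the highest being 1.87. It therefore checks the calculation and does not give the power or the rate of false calls for these data. Same-numbered TOTAL and INPUT libraries deviated together (correlations 0.321 to 0.629 across names, with 3 of 3 libraries closest to their own number). The highest correlation between different numbers was 0.331, above the lowest of these, so the data allow a pairing by number but do not settle it. The other pairs of groups did not have 3 of 3 libraries closest to their own number. The labels do not say that a number marks the same animal. Loci named in the text were the 3 with the highest IP mean per RLTR10 name in the table with INPUT, among those of at least 10, and others where stated. A ranking of names by likeness of pattern was left out because the IP libraries stand apart. The members, lists and tests were chosen with earlier results of these data known. Precision is limited by 3 libraries a group.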

Additional observations from a re-analysis of the deposited data

How the results depend on the processing

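RLTR10B and RLTR10B2 were called higher in IP under all 16 alternatives tried in each of the 3 IP comparisons, as were RLTR10C against BO and TOTAL and RLTR10-int against BO. The count of names called depends on scaling: with libraries scaled to their totals, 8 names were called higher against BO, 9 against INPUT and 9 against TOTAL, and 4 in INPUT against TOTAL, where 10.6%, 10.8%, 86.8% and 53.9% of all names were, while the median over all names moved by 0.49, 0.54, 1.54 and 1.0 (log2). Under that scaling RLTR10E turned to 0.16 against INPUT and 0.65 against TOTAL, and INPUT against TOTAL turned to 0.77 for RLTR10, 0.88 for RLTR10-int, 0.78 for RLTR10A, 0.68 for RLTR10D, 0.41 for RLTR10D2 and 0.50 for RLTR10E. Plain RLTR10 against BO passed 1 at 1.44 with library totals, 1.07 with the median ratio, 1.09 with edgeR, 1.09 with DESeq2, 1.09 without BO replicate 3 and 1.08 without IP replicate 1. On recovered reads edgeR called 64, 46 and 36 of all names higher in IP against BO, INPUT and TOTAL, of which 5, 2 and 3 were RLTR10 names. The median ratio, edgeR and DESeq2 moved the median of IP against BO by 0.12, 0.13 and 0.12.

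Leaving out 1 library at a time gave 0 to 1 names called lower in IP against TOTAL, the 1 being RLTR10E at -1.02 without IP replicate 2. RLTR10D2 in IP against TOTAL ranged from -0.17 (without TOTAL replicate 1) to 0.34, and was -0.14 without IP replicate 3. RLTR10F in INPUT against TOTAL ranged from -0.13 to 0.28, with -0.13 without TOTAL replicate 1 and -0.11 without INPUT replicate 2, and RLTR10B ranged from -0.014 (without TOTAL replicate 3) to 0.18. In BO against INPUT, RLTR10D ranged from -0.054 (without BO replicate 1) to 0.14, and RLTR10D2 from -0.013 (without INPUT replicate 1) to 0.13, with -0.012 without BO replicate 1. The cause of these changes was not tested.

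The replicate number was also entered as a block in the fit of all groups. With it, 4, 2 and 3 RLTR10 names were called higher in IP against BO, INPUT and TOTAL. In INPUT against TOTAL 0 were called higher. These RLTR10 counts were the same without the block. Of all names tested, 62, 39 and 34 were called higher in the IP comparisons with the block. For INPUT against TOTAL, 0 of all names were called higher and 5 lower. In a block fit of INPUT and TOTAL alone, chosen after seeing the data, 0 RLTR10 names were called. Of all names, 0 were called higher and 16 lower in that fit. RLTR10C had a limma adjusted p of 0.0475 there, and its log2 fold change stayed under 1. The block changed no call of an RLTR10 name.

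A minimum of 2 for loci gave 69 of 132, 93 of 171 and 91 of 172 past 2-fold higher against BO, INPUT and TOTAL, where 15.4%, 20.6% and 19.8% of all repeat loci were, and 18, 14 and 19 lower, where 44.0%, 32.2% and 26.8% were. A minimum of 50 gave 4 of 4, 4 of 5 and 4 of 5 higher, where 20.6%, 25.2% and 29.9% were, and 0 lower against BO and INPUT, where 52.2% and 26.5% were. A pseudocount of 5 gave 1 of 33 lower against BO, where 41.7% were. A mean of at least 100 left out RLTR10D, RLTR10D2, RLTR10E and RLTR10F. The 2 alternatives on distance from an internal copy were not run, since no coordinates were used. Of the ratios, 200 of 200 values under other pseudocounts moved by less than the spread between libraries. Precision is limited by 3 libraries a group and by as few as 23 reads on a name.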
